A study of Homo sapiens with 33 samples.

Results

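All-trans retinoic acid (ATRA) was set against its solvent DMSO after 24 h in NB4 cells, an established human line of acute promyelocytic leukaemia. The members of the comparison are 6 of the 33 libraries of a time course, 3 from cultures given 1 µM ATRA for 24 h and 3 from cultures given DMSO for 24 h, chosen by treatment and time in the library names. Each group holds biological replicates 2, 4 and 5. The ATRA and DMSO groups of 12 h and 72 h and the untreated cells of 0 h, each also with 3 libraries, are used below only where the 24 h effect is set against them. All groups are the same line with no genetic change named in the labels, so the results describe 1 leukaemia line. The labels give no concentration for DMSO. Fresh drug was given on day 3, after the 24 h cells had been collected.

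NB4 cells carry the fusion of the PML gene with the retinoic acid receptor gene RARA, which holds myeloid cells at the promyelocyte stage. ATRA binds retinoic acid receptors, which pair with retinoid X receptors on DNA, and releases the block, so that the cells mature towards neutrophil-like cells over days. Maturing granulocytes pass through an ordered programme in which primary (azurophil) granule proteins come first, specific and gelatinase granule proteins later, and the surface receptors, the NADPH oxidase and the motility apparatus of the phagocyte last.

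The 6 libraries held 18341456 to 31273271 counts summed over genes (median 27740754), where a fragment on more than 1 gene counts for each. The table lists 85160 genes, and 22971 passed the filter on low counts and were tested. Levels are given as CPM, the count scaled to a common depth, for replicates 2, 4 and 5 in this order. Log2 changes are ATRA over DMSO with their standard error. A gene is called where its p, from the quasi-likelihood test of edgeR and adjusted by Benjamini-Hochberg over all genes tested, was under 0.05, and rose, fell, higher and lower are used of called genes. Across genes, log values of libraries of 1 group correlated at 0.98919 at least. Replicate 2 ran in lane 2 and replicates 4 and 5 in lane 3 on both sides. Replicate 2 stood apart from the others, with a chi-square per degree of freedom of 5.244 and 5.956 against replicates 4 and 5 in ATRA and of 22.66 and 18.03 in DMSO, while replicates 4 and 5 differed from each other by 2.461 in ATRA and 2.915 in DMSO. Between libraries of the same number, 98.8% of the 7624 called genes changed in the called direction in replicate 2, 99.7% in replicate 4 and 99.8% in replicate 5. The calls rest on these same libraries, and 96.9% of the called genes had groups without overlap. These shares are therefore no test of the replicates or lanes.

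The libraries carried some of the marks of promyelocytes and lacked another. The myeloperoxidase gene MPO stood at 8146, 8017 and 7678 CPM with ATRA, against 8434, 9642 and 9200.2 CPM with DMSO. The ATRA libraries were all below the DMSO libraries, but the difference did not pass (log2 change -0.19, adjusted p = 0.153). The elastase gene ELANE, another promyelocyte marker, was almost absent, with 5 counts in the ATRA libraries together and 13 in the DMSO libraries. Of the 12 promyelocyte markers 11 were tested, of which 4 rose and 4 fell, where 17.4% of all genes tested rose and 15.8% fell (33.2% called). In the other marker lists, HBA1, HBB and PF4 of red cells and megakaryocytes, C1QB and C1QC of macrophages, FCER1A of mast cells and DCN and LUM of fibroblasts had 0 counts in all 6 libraries. Fewer cells of a type and less RNA per cell cannot be told apart in bulk RNA.

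Promoters of 4 genes on which the results below turn are shown first. They were chosen from the named genes because their windows hold a motif searched. The window of EEF1A1 also holds the C/EBP motif and is not shown. HK3 and ALOX5AP are among the largest rises, PRTN3 has the largest gain in CPM, and CYTL1 is among the largest falls. The windows run from 250 bases before to 50 bases after the annotated start (RefSeq, GRCh38.p14, written 5′ to 3′ along the gene), and capitals mark the motif matches found.
HK3 (chr5:176899297-176899596, minus strand): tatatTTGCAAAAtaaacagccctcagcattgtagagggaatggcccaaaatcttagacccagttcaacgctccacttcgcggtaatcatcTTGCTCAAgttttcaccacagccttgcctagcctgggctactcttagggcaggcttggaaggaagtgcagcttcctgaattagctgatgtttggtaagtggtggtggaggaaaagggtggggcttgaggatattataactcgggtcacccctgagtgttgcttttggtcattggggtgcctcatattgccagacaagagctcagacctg
ALOX5AP (chr13:30713235-30713534, plus strand): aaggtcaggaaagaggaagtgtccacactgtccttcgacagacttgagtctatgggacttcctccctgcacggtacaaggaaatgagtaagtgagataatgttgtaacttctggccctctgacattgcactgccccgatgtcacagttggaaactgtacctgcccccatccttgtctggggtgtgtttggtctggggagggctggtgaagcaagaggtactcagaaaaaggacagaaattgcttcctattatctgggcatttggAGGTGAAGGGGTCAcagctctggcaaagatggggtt
PRTN3 (chr19:840749-841048, plus strand): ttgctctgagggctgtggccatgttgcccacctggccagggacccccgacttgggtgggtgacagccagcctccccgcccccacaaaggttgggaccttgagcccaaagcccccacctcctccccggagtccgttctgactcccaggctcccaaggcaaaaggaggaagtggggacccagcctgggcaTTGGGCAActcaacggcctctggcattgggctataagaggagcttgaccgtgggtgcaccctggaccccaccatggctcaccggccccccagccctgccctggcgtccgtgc
CYTL1 (chr4:5019409-5019708, minus strand): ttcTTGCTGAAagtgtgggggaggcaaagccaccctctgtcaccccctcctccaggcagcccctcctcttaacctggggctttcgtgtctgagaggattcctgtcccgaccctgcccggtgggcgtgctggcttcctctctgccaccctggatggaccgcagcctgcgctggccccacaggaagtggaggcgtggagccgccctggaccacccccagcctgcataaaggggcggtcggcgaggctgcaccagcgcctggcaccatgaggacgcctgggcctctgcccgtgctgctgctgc

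The C/EBP motif searched was TTGCNNAA on both strands, the core bound by the myeloid C/EBP factors. It begins at bases -245 and -159 from the start of HK3, at -62 in PRTN3 and at -247 in CYTL1, and 10.5% of 35116 promoters of the same length hold it. Retinoic acid receptor sites were searched as direct repeats of the nuclear receptor hexamer with 5, 2 or 1 bases between, on both strands. A direct repeat with a spacer of 2 lies at base 14 after the start of ALOX5AP, and 0.236% of all promoters hold 1. Repeats with a spacer of 5 or 1, held by 0.342% and 0.382% of all promoters, were not found in any of 30 promoters of named genes. A match describes these letters only.

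Response to ATRA at 24 h spread over 33.2% of the genes tested, 17.4% higher and 15.8% lower, the shares that counts of list members below stand against, with a median change of 0.02 over all genes and of 0.57 in size over the called genes. With the 24 h libraries of replicate 2 left out, 3300 genes were higher and 2998 lower. This setting is called lane 3 alone below, as its 24 h libraries are all from lane 3. The libraries of other times stayed in its fit. The 3 ATRA libraries did not overlap the 3 DMSO libraries for 47.0% of the genes tested (24.4% higher and 22.6% lower). The larger changes leaned upward. Of genes called with at least a 2-fold change (10.2% of those tested), 1429 were higher and 913 lower (6.22% and 3.97%). At 4-fold or more the numbers were 621 and 360, and at 16-fold or more 174 and 60. Protein-coding genes were called most often, 2756 higher and 3052 lower (43.3% of those tested). Long non-coding genes split 516 to 229 (23.6%) and FANTOM CAT models, which are transcripts annotated from transcription start tags, 349 to 147 (16.3%). Pseudogenes split 183 to 79 (14.3%) and small RNA or mitochondrial genes 77 to 27 (15.1%). Rises thus outnumbered falls in each of these classes but the protein-coding one.

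**Figure D1:**
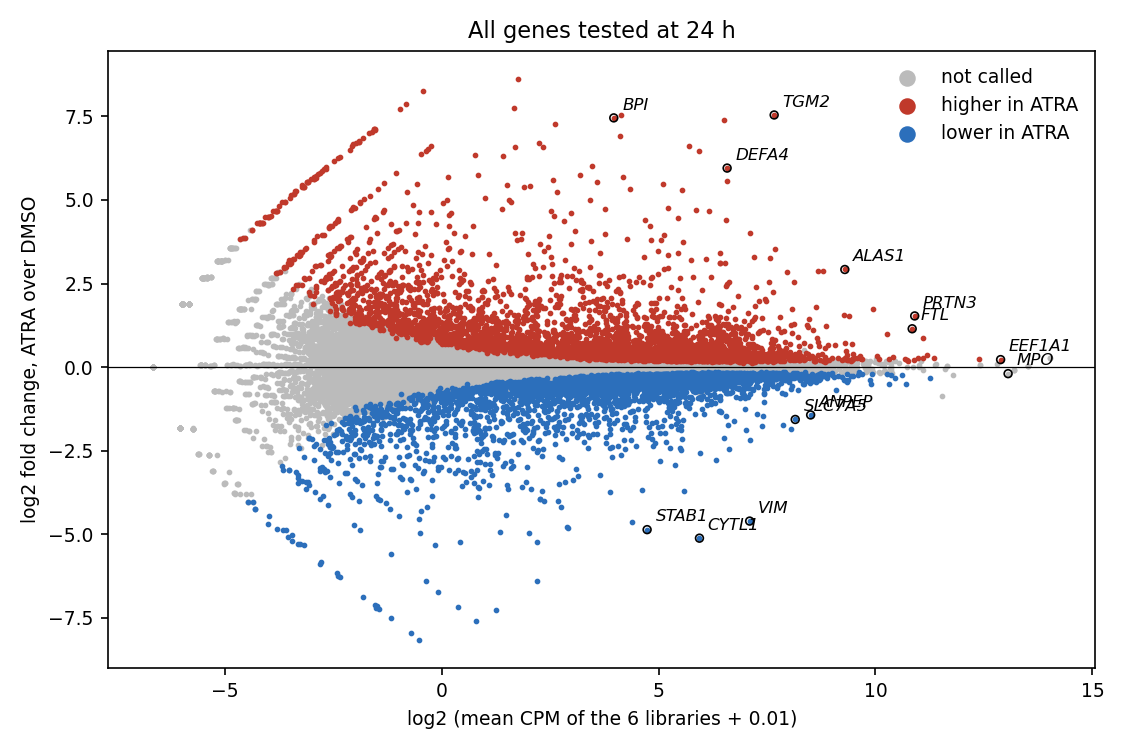
Log2 change of ATRA over DMSO at 24 h (y axis) against the log2 of mean CPM of the 6 libraries plus a small offset (x axis) for the 22971 genes tested, with genes called higher in red, genes called lower in blue, others in grey and some genes marked by name. The slanting lines at low CPM are genes with few counts. Of the genes called with at least a 2-fold change 1429 lie above 0 and 913 below.

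Among genes with an average log2 CPM of at least 1, the largest rises were in genes low in DMSO cells. HK3, the hexokinase isoform of maturing granulocytes, stood at 33.6, 35 and 34.5 CPM with ATRA, against 0.214, 0.389 and 0.22 CPM with DMSO. The groups lay far apart, with every DMSO library under 1 CPM (log2 change 6.90 ± 0.17, adjusted p = 2.58e-29; ENSG00000160883, chromosome 5, 176879710 to 176899340 in the authors' GRCh38 annotation). CDH23, an atypical cadherin gene, had 34.4, 37.3 and 34.7 CPM with ATRA, against 0.268, 0.907 and 0.723 CPM with DMSO (log2 change 5.68 ± 0.22). The potassium channel gene KCNH4 rose by 5.74 and the leukotriene B4 hydroxylase gene CYP4F3 by 6.02 on the log2 scale. All 14 genes named for the largest rises were separated without overlap, as the naming rule required, and their log2 changes ran from 5.48 (DHRS3, a retinaldehyde reductase) to 7.54 (TGM2, a transglutaminase).

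**Figure D2:**
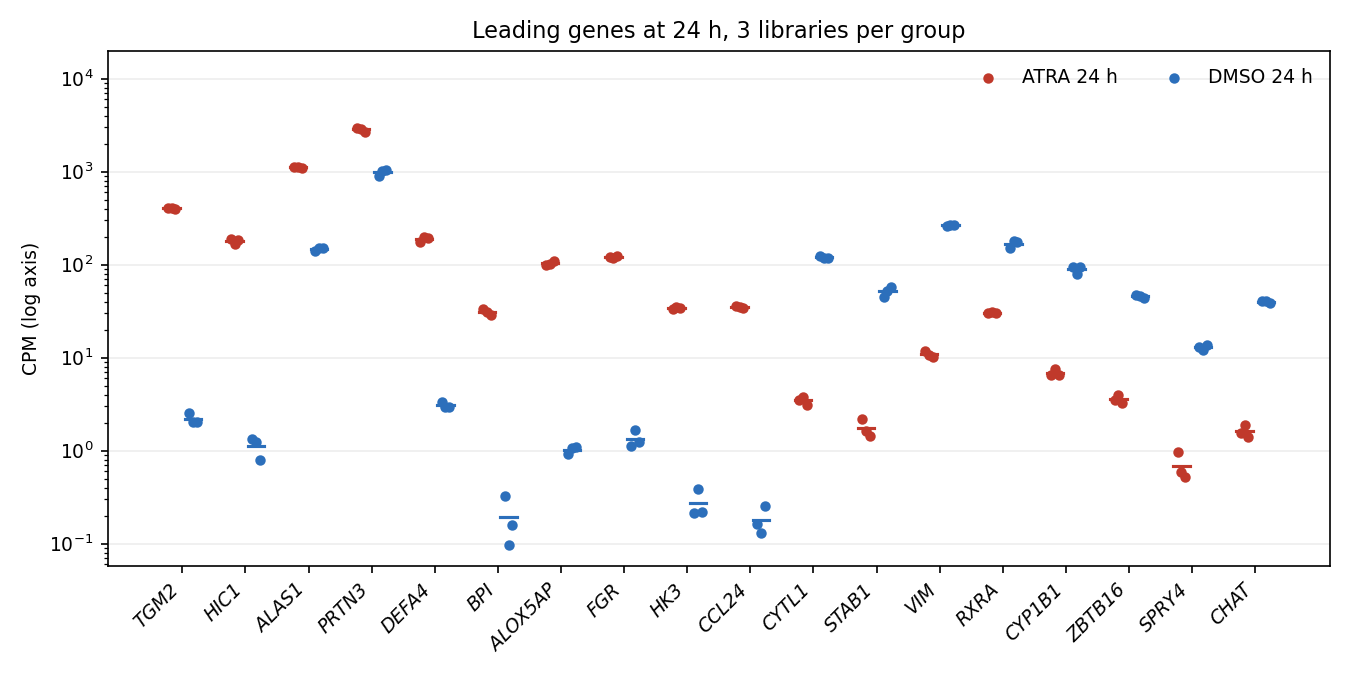
CPM on a log axis in each ATRA library (left of each pair) and each DMSO library for 18 of the genes with large changes at 24 h, with points for single libraries and bars for group means. For HK3 the ATRA libraries lie between 33.6 and 35 CPM and the DMSO libraries all below 0.4 CPM.

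Among the receptors themselves, the partners of ATRA moved unequally. RXRA, the main retinoid X receptor of myeloid cells, had 30.5, 31.2 and 29.95 CPM with ATRA, against 152, 178 and 173 CPM with DMSO. Every ATRA library was below every DMSO library (log2 change -2.46 ± 0.10, adjusted p = 8.46e-23). RXRB rose by 0.45 ± 0.10 and the low-level receptor gene RARG by 2.28 ± 0.37, while RARA, which also encodes part of the fusion protein, had a log2 change of -0.01 and did not pass. RARB had 73 counts in the ATRA libraries together and 1 in the DMSO libraries, a ratio of 77.2 (95% counting interval 13.4 to 3089, which covers counting error only).

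Of the 19 genes of retinoid uptake, binding and metabolism 13 were tested, of which 3 rose and 4 fell, with a median of 0.15. Without ATRA replicate 4 the falls dropped to 1, without DMSO replicate 4 to 2, and a stricter filter on counts gave 5 rises. DHRS3 had 69.5, 64.5 and 66.3 CPM with ATRA, against 1.61, 1.81 and 1.1 CPM with DMSO, and CYP26B1, a retinoic acid hydroxylase, rose by 4.31 ± 0.59 at about 1 CPM. FABP5, a carrier of retinoic acid and fatty acids, fell by 0.44 on the log2 scale. CYP26A1, the best known retinoic acid hydroxylase, had a log2 change of 0.55 that did not pass (adjusted p = 0.358). Of 20 known ATRA targets of leukaemia cells, all tested, 18 rose and 2 fell (median 2.47, against 0.02 over all genes). PRAM1, an adaptor found as a target of the PML-RARA fusion, had 278, 248 and 249.7 CPM with ATRA, against 14, 16.2 and 17.2 CPM with DMSO (log2 change 4.02 ± 0.10). The members that fell were the cell cycle inhibitor gene CDKN1A (-1.41 ± 0.27) and the death ligand gene TNFSF10 (-0.47 ± 0.15), both low. TNFSF10 did not pass without ATRA replicate 2 or DMSO replicate 4, with limma-voom or in lane 3 alone (adjusted p up to 0.127).

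The transcription factor genes that set myeloid fate split. Of 28 factors 27 were tested, of which 6 rose and 13 fell (median -0.25). IRF1, an interferon regulatory factor, had 129.8, 128 and 129 CPM with ATRA, against 20.2, 19.3 and 20.4 CPM with DMSO (log2 change 2.69 ± 0.07). The libraries within each group were close to each other and the groups lay far apart. SPI1, the gene of the master factor PU.1, rose by 0.87 ± 0.07 at 140.3 ± 5.37 CPM with ATRA and 76.5 ± 3.28 CPM with DMSO. CEBPB rose by 1.72 ± 0.15, but its whole exon length overlaps another gene model on the same strand, so its counts are shared. KLF4, a factor of monocyte fate, fell to 0.32, 0.318 and 0.372 CPM with ATRA, against 3.75, 4.37 and 3.71 CPM with DMSO (-3.53 ± 0.23). KLF6 fell by 1.78, the haematopoietic factor gene NFE2 by 1.13 and ETV6 by 0.87 on the log2 scale. CEBPA, the C/EBP factor that starts granulocyte commitment, had a log2 change of -0.18 (adjusted p = 0.129) and its exons overlap another gene over 62% of their length.

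Immediate-early factors, which cells switch on within minutes of a stimulus, moved both ways, 5 of 19 tested higher and 8 lower (median -0.15). The number of rises was not stable. Without ATRA replicate 4, DMSO replicate 4 or DMSO replicate 5 they numbered 2, and without ATRA replicate 2, in lane 3 alone or with DESeq2 they numbered 3. NR4A1, an orphan receptor of this group, fell to 0.819, 0.818 and 0.633 CPM with ATRA, against 2.73, 3.14 and 3.46 CPM with DMSO (-2.06 ± 0.24), and FOSL2 of the AP-1 family fell by 1.04 on the log2 scale. Of stem and progenitor genes 0 of 14 tested rose and 10 fell (median -0.37). CYTL1, a cytokine-like gene of progenitors, had 3.52, 3.77 and 3.09 CPM with ATRA, against 123, 118 and 117 CPM with DMSO, and MYB, a factor that keeps progenitors dividing, fell by 0.36 on the log2 scale at 225 ± 2.83 CPM with ATRA and 289.8 ± 5.7 CPM with DMSO.

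Azurophil granule genes were split between strong rises and clear falls. Of 20 genes 19 were tested, of which 13 rose and 4 fell (median 0.39). PRTN3, the gene of proteinase 3, had 2976, 2869 and 2699 CPM with ATRA, against 898, 1019.5 and 1036 CPM with DMSO. Every ATRA library lay above every DMSO library (log2 change 1.53 ± 0.09, adjusted p = 1.4e-17; ENSG00000196415, chromosome 19, 840960 to 848227). SRGN, the proteoglycan that packs granule proteins, had 2779, 2864 and 2796 CPM with ATRA, against 1714, 1482 and 1430.2 CPM with DMSO (0.87 ± 0.08). PRTN3 and SRGN were named by their gain in CPM under a rule that required groups without overlap. SERPINB1, the inhibitor of neutrophil proteases, rose by 2.67 ± 0.10. The defensin genes DEFA3 and DEFA1B rose by 5.55 and 5.29, and since these genes are near-identical copies their separate values are uncertain.

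The azurophil genes that fell encode proteases, a protease inhibitor and a lysozyme. CST7, a cathepsin inhibitor, stood at 13, 12.1 and 12.9 CPM with ATRA, against 57.8, 62.3 and 59 CPM with DMSO (-2.23 ± 0.08). Cathepsin G, CTSG, stood at 7.19, 7.18 and 7.59 CPM with ATRA, against 20.5, 20.9 and 20.2 CPM with DMSO (-1.49 ± 0.11), and lysozyme, LYZ, fell by 1.01 on the log2 scale. Of 24 specific and gelatinase granule genes 20 were tested, of which 6 rose and 5 fell (17.4% and 15.8% over all genes). MMP9, the gelatinase that names the late granules, fell to 36.3, 42.4 and 35.5 CPM with ATRA, against 81.9, 91.9 and 99.6 CPM with DMSO, with no overlap (-1.26 ± 0.12). CHI3L1, a chitinase-like specific granule protein, fell by 0.44 and the pattern recognition protein gene PTX3 by 2.73 on the log2 scale. BPI, in both granule lists, and ORM1 (1.78 ± 0.29) rose.

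**Figure D3:**
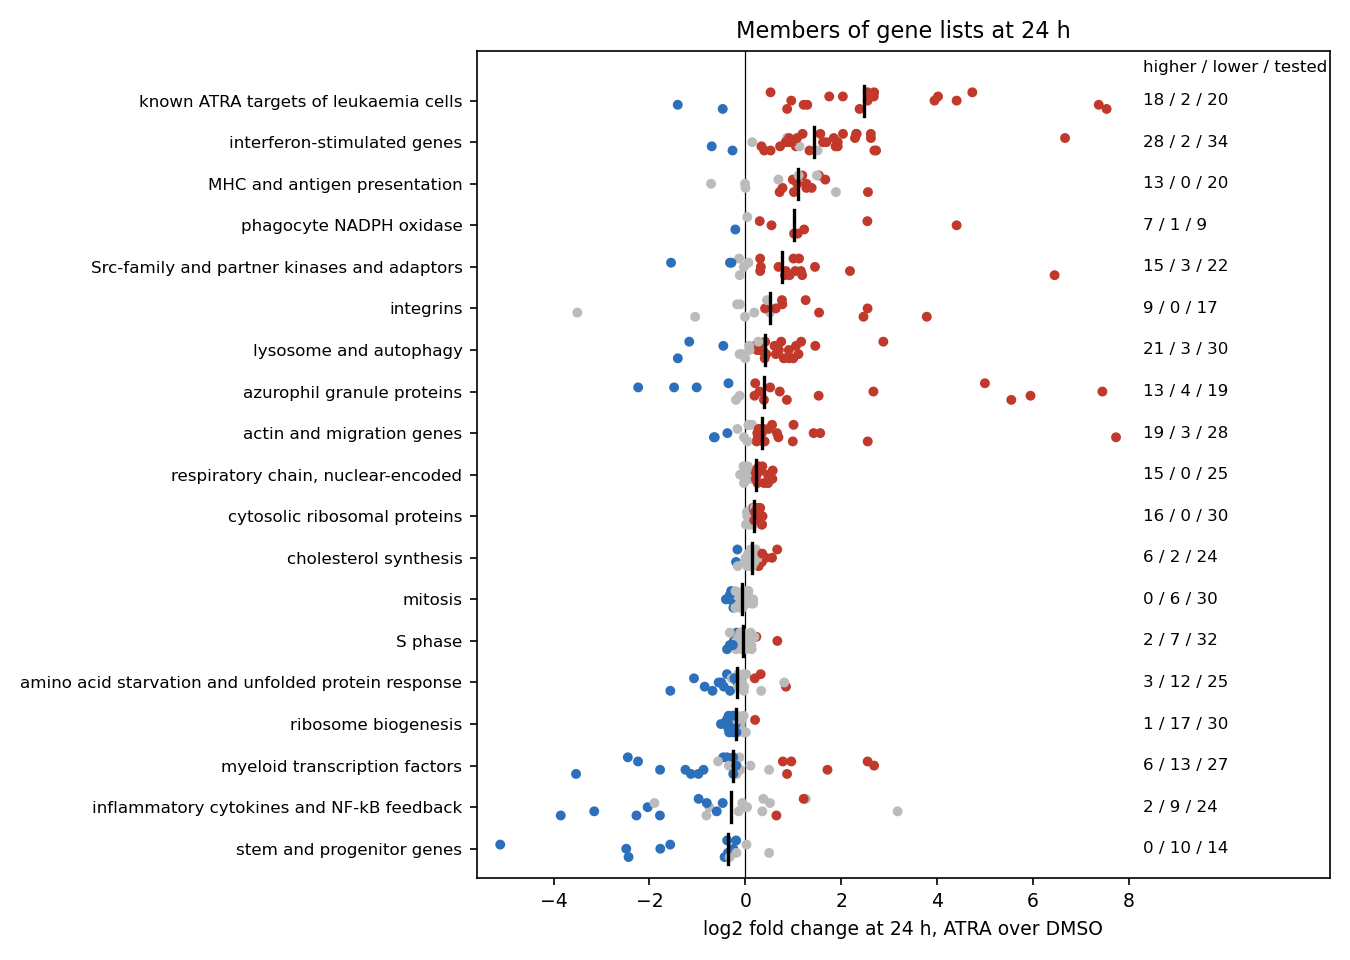
Log2 change of ATRA over DMSO at 24 h (x axis) of each tested member of 19 gene lists (y axis), in red where called higher, in blue where called lower and in grey where not called, with the median of the list as a black bar and the counts called higher, called lower and tested at the right. Known ATRA targets lie highest by median (2.47, 18 higher and 2 lower of 20), and stem and progenitor genes lowest (-0.37, 0 higher and 10 lower of 14).

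Most genes of the NADPH oxidase, which makes superoxide in phagocytes, rose. Of its 9 genes, all tested, 7 rose and 1 fell (median 1.02). The membrane subunit CYBB had 649, 649 and 659 CPM with ATRA, against 290.2, 273 and 272 CPM with DMSO (1.23 ± 0.08), and its partner CYBA 339, 332 and 306 CPM with ATRA, against 136, 161 and 161 CPM with DMSO (1.09 ± 0.09). In both genes the ATRA libraries lay above the DMSO libraries without overlap. The GTPase RAC2 rose by 1.02 ± 0.08, while the cytosolic NCF4 had a log2 change of 0.04 (adjusted p = 0.699) and RAC1 fell by 0.21, a call that was lost with no filter on low counts (adjusted p = 0.0674). NCF1 rose by 4.41 but has near-identical pseudogenes and is uncertain.

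Of 17 integrin genes tested 9 rose and 0 fell (median 0.52), and 1 fell with DESeq2, limma-voom, RLE size factors, the filter of 50 counts, the replicate block, the 6 libraries alone, lane 3 alone or without DMSO replicate 2. ITGB7 had 51.9, 51.3 and 54.7 CPM with ATRA, against 3.38, 3.73 and 4.18 CPM with DMSO (3.79 ± 0.14). The β2 integrin genes ITGAX (CD11c), ITGAM (CD11b) and ITGB2 (CD18) rose by 2.55 ± 0.12, 1.54 ± 0.10 and 1.26 ± 0.08, while ITGAL (CD11a) did not pass (adjusted p = 0.987), with overlapping groups. Of Fc, complement and chemoattractant receptors 9 of 20 tested rose and 5 fell. The chemokine receptor gene CCR1 had 28.6, 28.4 and 28.8 CPM with ATRA, against 5.68, 7.81 and 7.29 CPM with DMSO (2.02 ± 0.10), and CXCR2, the receptor that draws neutrophils to interleukin 8, rose by 1.88 ± 0.12. CXCR4, which holds immature cells in bone marrow, fell to 11, 11.9 and 11.5 CPM with ATRA, against 28.1, 32.2 and 26.9 CPM with DMSO (-1.34 ± 0.12). The anaphylatoxin receptor genes C3AR1 and C5AR1 fell by 1.04 each on the log2 scale.

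Growth factor and cytokine receptors were split 7 to 7 among 19 tested. CSF3R, the receptor of the granulocyte growth factor G-CSF, had 136, 132 and 129.7 CPM with ATRA, against 34.7, 34.2 and 37.9 CPM with DMSO (1.90 ± 0.09). IL17RA fell to 55.7, 55.7 and 53.2 CPM with ATRA, against 195, 205 and 207 CPM with DMSO (-1.88 ± 0.07), a separation with no overlap in either gene. The falls numbered 4 in lane 3 alone and without ATRA replicate 2, ATRA replicate 4 or DMSO replicate 5. Of 25 pattern recognition and lectin receptors tested 8 rose and 7 fell, SIRPA, the receptor for the CD47 signal, by 1.39 ± 0.08, TLR4 by 1.63 ± 0.13 and the adaptor TYROBP by 1.62 ± 0.14 upward. The lectin receptor gene CLEC4E fell by 3.72 on the log2 scale.

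Src-family kinases and their partners, which carry the signals of these receptors, mostly rose, 15 of 22 tested with 3 lower (median 0.76). The myeloid kinase gene FGR had 122, 118 and 123 CPM with ATRA, against 1.13, 1.68 and 1.23 CPM with DMSO (6.46 ± 0.15). PIK3CG, the PI 3-kinase of chemoattractant signalling, rose by 1.46 ± 0.08, the focal adhesion kinase PTK2B by 1.12 ± 0.07 and the phosphatase PTPN6 by 1.04 ± 0.07. FYN, a kinase of the same family as FGR, fell by 1.55 on the log2 scale at 3.83 ± 0.506 CPM with ATRA and 11.2 ± 0.113 CPM with DMSO. Of 28 actin and migration genes 19 rose and 3 fell. MYO1F, a myosin of neutrophil motility, had 946, 949 and 900.1 CPM with ATRA, against 304, 318 and 322 CPM with DMSO (1.56 ± 0.07), and PLEK, a platelet and leukocyte kinase substrate, rose by 1.43 ± 0.07. The formin DIAPH1 fell by 0.64 and the capping protein CAPG by 0.65 on the log2 scale.

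Genes of secreted signals changed in both directions. Of 24 chemokine genes 17 were tested, of which 6 rose and 3 fell. The largest rise was in CCL24 (7.53 ± 0.23). It had 35.7, 35.2 and 34.2 CPM with ATRA, against 0.161, 0.13 and 0.251 CPM with DMSO. CCL22 rose by 2.80 ± 0.28, while CXCL8, the gene of interleukin 8, fell to 11.9, 11.3 and 13.4 CPM with ATRA, against 26.4, 22.7 and 25 CPM with DMSO (-1.01 ± 0.12). Of 24 inflammatory cytokine and NF-kB feedback genes tested 2 rose and 9 fell (median -0.30), and 1 rose without ATRA replicate 4, DMSO replicate 2 or DMSO replicate 4 or with limma-voom. The lymphotoxin gene LTB fell to 1.5, 2.23 and 1.26 CPM with ATRA, against 6.91, 6.58 and 6.72 CPM with DMSO (-2.04 ± 0.17). OSM, the gene of oncostatin M, fell by 1.78, and TNFAIP3, the feedback inhibitor A20, by 0.97 on the log2 scale at 23.2 ± 0.604 CPM with ATRA and 45.6 ± 1.06 CPM with DMSO. TNFSF13B, a B cell survival factor, rose by 1.22 ± 0.15.

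Interferon-stimulated genes, the antiviral set downstream of interferon receptors, rose nearly throughout. All 34 were tested, 28 rose and 2 fell (median 1.43). OAS3, a sensor of double-stranded RNA, had 93.5, 94.2 and 101 CPM with ATRA, against 14.2, 16 and 14.2 CPM with DMSO, and no library of one group came near the other (2.70 ± 0.10, adjusted p = 2.97e-23). IFI35 rose by 2.62 ± 0.15, the restriction factor TRIM22 by 2.31 ± 0.13 and IFI6 by 1.93 ± 0.11. Those that fell were HERC5 (-0.70 ± 0.11), the ligase that attaches ISG15, and the nuclease gene ISG20 (-0.27 ± 0.08), whose exons overlap another gene over 51% of their length and whose adjusted p was 0.0516 without DMSO replicate 4. Of 20 genes of MHC and antigen presentation tested 13 rose and 0 fell (median 1.10). The immunoproteasome gene PSMB9 had 36.7, 39.2 and 39 CPM with ATRA, against 6.38, 6.84 and 6.22 CPM with DMSO (2.56 ± 0.09), the peptide transporter TAP1 rose by 1.39 ± 0.08 and the class I gene HLA-C by 1.28 ± 0.07. The class II transactivator gene CIITA had a log2 change of -0.01 and did not pass, and HLA-DRA had 0 counts in all 6 libraries.

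Coagulation is disturbed in patients with this leukaemia, whose cells carry tissue factor. F3, the tissue factor gene, fell to 3.6, 5.05 and 3.83 CPM with ATRA, against 23.6, 28.2 and 27.6 CPM with DMSO (-2.69 ± 0.12). THBD, the gene of the anticoagulant receptor thrombomodulin, rose to 77.1, 70.5 and 72 CPM with ATRA, against 13, 15.2 and 16.2 CPM with DMSO (2.30 ± 0.12), and in both genes the groups were far apart. ANXA2, the annexin that binds plasminogen and its activator, fell to 22.4, 21.5 and 22 CPM with ATRA, against 63.3, 66.5 and 59.9 CPM with DMSO (-1.53 ± 0.07), and its partner S100A10 fell by 0.93 on the log2 scale. PROS1, the gene of protein S, rose by 2.20 ± 0.20. Of 15 coagulation and fibrinolysis genes tested 7 rose and 6 fell (median 0.45).

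Within the BCL2 family, which sets the threshold of cell death, 5 of 14 tested rose and 3 fell. The largest changes of the family were in BCL2A1, which rose by 4.73, and BCL2, which fell by 2.48 on the log2 scale. The proapoptotic genes BBC3 and BMF fell by 1.05 and 0.81 on the log2 scale and BIK rose by 1.16 ± 0.14. Genes that make leukotrienes and prostaglandins were 8 higher and 3 lower of 14 tested. ALOX5AP, the protein that hands arachidonic acid to 5-lipoxygenase, had 100, 102 and 108 CPM with ATRA, against 0.911, 1.07 and 1.1 CPM with DMSO, a level near 1 CPM in every DMSO library (6.62 ± 0.14; ENSG00000132965, chromosome 13, 30713478 to 30773905). ALOX5, the lipoxygenase itself, had 3 counts in the ATRA libraries together and 38 in the DMSO libraries, a ratio of DMSO to ATRA of 12 (95% counting interval 3.8 to 60.7). The prostaglandin synthase genes PTGS1 and PTGES rose by 1.91 ± 0.08 and 6.59 ± 0.26, and the thromboxane synthase TBXAS1 by 0.73 ± 0.07. The prostaglandin receptor PTGER4 fell by 0.85 on the log2 scale. Feedback genes of the MAPK cascade were 4 higher and 7 lower of 18 tested, with DUSP6 at 142, 135 and 136 CPM with ATRA, against 56.6, 55 and 56.7 CPM with DMSO (1.29 ± 0.08), and SPRY4 at 0.961, 0.591 and 0.521 CPM with ATRA, against 13, 12 and 13.6 CPM with DMSO (-4.19 ± 0.14). These inhibitors of the same cascade moved in opposite directions, each without overlap, which the naming rule required for SPRY4.

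Division genes that were called moved by small amounts, mostly downward. Of 32 S phase genes 2 rose and 7 fell, and of 30 mitosis genes 0 rose and 6 fell, with medians of -0.06 and -0.06 against 0.02 over all genes. Over all genes 17.4% rose and 15.8% fell. CENPA, a centromere histone, had 48.4, 47.6 and 47.3 CPM with ATRA, against 63, 64.5 and 61.9 CPM with DMSO (-0.40 ± 0.07), and the mitotic kinase PLK1 fell by 0.33 on the log2 scale. TK1, thymidine kinase, rose by 0.67 ± 0.10. The S phase rises numbered 6 with the 6 libraries fitted alone and 1 without ATRA replicate 4 or in lane 3 alone. The S phase falls numbered 4 in lane 3 alone, without ATRA replicate 5 or without DMSO replicate 4, and the mitosis falls 10 with the 6 libraries fitted alone. Among cell cycle inhibitors and G1 cyclins CDKN2D, the inhibitor p19, rose to 20.5, 19.3 and 19.7 CPM with ATRA, against 7.66, 7.71 and 8.2 CPM with DMSO (1.33 ± 0.09), and CCND3, cyclin D3, fell by 0.44 on the log2 scale.

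Ribosome genes moved in opposite directions by small amounts. Of 30 genes of ribosome biogenesis 1 rose and 17 fell (median -0.20), among them RRP9 with 64.3, 59.97 and 61.2 CPM with ATRA, against 80.01, 90.2 and 93.2 CPM with DMSO (-0.51 ± 0.08), and the polymerase I subunit POLR1E, which fell by 0.35 on the log2 scale. In lane 3 alone the falls numbered 8. Of 30 cytosolic ribosomal protein genes 16 rose and 0 fell (median 0.19), RPLP0 to 2588, 2712 and 2559.8 CPM with ATRA, against 2049, 2052 and 2017 CPM with DMSO (0.36 ± 0.08). The rises numbered 10 with RLE size factors and 9 without ATRA replicate 4 or DMSO replicate 5. In the MYC network 2 of 11 tested rose and 6 fell (median -0.26). The rises numbered 1 in lane 3 alone and without ATRA replicate 2 or 4 or DMSO replicate 2 or 4. MYC itself fell by 0.43, MXD1 and MAX fell by 0.45 and 0.34, and the antagonist MNT rose by 0.56 ± 0.10. Of the members 1 was called at least 2-fold lower, and the lowest log2 change was -3.933.

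Metabolic genes held some of the largest gains. ALAS1, the first enzyme of haem synthesis, had 1109, 1121 and 1098 CPM with ATRA, against 139, 150.3 and 149.6 CPM with DMSO (2.92 ± 0.08), with a wide gap between the groups. Of 18 iron and haem genes tested 8 rose and 3 fell. The ferritin light chain FTL rose by 1.15 ± 0.08 and the heavy chain FTH1 fell by 0.80 on the log2 scale, and the iron exporter SLC40A1 rose by 1.70 ± 0.09. In glycolysis and hypoxia 6 of 26 tested rose and 7 fell, where 17.4% and 15.8% of all genes did. Pyruvate kinase, PKM, rose by 1.00 ± 0.07. The glucose transporter SLC2A3 fell by 1.87 and the hexokinase HK2 by 0.61 on the log2 scale. HK2 stood at 71.9, 70.8 and 72.4 CPM with ATRA, against 118, 107 and 105 CPM with DMSO, so that HK3 and HK2 moved in opposite directions.

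Of 25 nuclear genes of the respiratory chain 15 rose and 0 fell (median 0.23), among them SDHB (0.47 ± 0.07) and COX5B (0.57 ± 0.09). Of 30 lysosome and autophagy genes 21 rose and 3 fell (median 0.42). The protease gene CTSD had 814, 762 and 757 CPM with ATRA, against 91.6, 111 and 113 CPM with DMSO (2.88 ± 0.10). CTSH, another lysosomal protease, fell to 31.2, 31.9 and 31.7 CPM with ATRA, against 79.9, 87.5 and 83.7 CPM with DMSO (-1.41 ± 0.07), with clear gaps in both genes. Of 25 genes of the responses to unfolded proteins and to amino acid starvation 3 rose and 12 fell (median -0.16), and with DESeq2 or in lane 3 alone 1 rose. SLC7A5, a leucine transporter, fell to 154, 142 and 134 CPM with ATRA, against 391, 449 and 435 CPM with DMSO (-1.56 ± 0.12), the serine synthesis gene PHGDH fell by 0.85 and the pseudokinase TRIB3 by 1.07 on the log2 scale.

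DNMT3B, a methyltransferase that sets new DNA methylation, fell to 18.7, 17 and 17.7 CPM with ATRA, against 56.3, 61.3 and 64 CPM with DMSO (-1.76 ± 0.07). Among 24 chromatin regulators 5 rose and 7 fell, where 17.4% and 15.8% of all genes did, and in lane 3 alone 3 rose. The histone demethylase genes KDM5B and KDM1A fell by 0.62 and 0.32 on the log2 scale and KDM6B rose by 0.81 ± 0.13. PML, the other partner of the fusion, rose by 0.46 ± 0.07. Of the S100 genes, S100A8 and S100A9, which form calprotectin, rose by 3.61 ± 0.16 and 3.80 ± 0.10, with S100A9 at 59.8, 61.7 and 65.6 CPM with ATRA, against 4.82, 4.24 and 4.46 CPM with DMSO.

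Some marker genes of other cells were called too. Monocyte and macrophage markers rose in 5 of 11 tested, among them MERTK (2.34 ± 0.14), a receptor for dying cells, and CD68 (1.49 ± 0.09), whose exons overlap another gene over 85.8% of their length. CD14 had 3 counts in the ATRA libraries together and 4 in the DMSO libraries. Of the 11 tested 4 had a negative log2 change, the lowest -2.839, and 0 were called lower. With RLE size factors 1 fell, and without DMSO replicate 4 2 fell. The summed level of the 16 monocyte and macrophage markers was 91.8 to 102 CPM in ATRA and 43.7 to 48.7 CPM in DMSO libraries. This sum includes the shared counts of CD68. Of 13 eosinophil, basophil and mast cell markers tested 3 rose and 5 fell. HDC, histidine decarboxylase, fell to 3.63, 4.59 and 4.13 CPM with ATRA, against 14.7, 17 and 18.2 CPM with DMSO, and PRG2 and EPX, eosinophil granule genes, fell by 0.68 and 0.78 on the log2 scale. The 3 members that rose did so by at least 2-fold, and the highest log2 change of the list was 4.215. The summed level of this list was 470.0 to 503 CPM in ATRA and 778 to 832 CPM in DMSO libraries. Of 10 lymphocyte markers tested CD79A and CD4 rose and CD79B and EBF1 fell, shares near the 17.4% and 15.8% of all genes. EBF1 did not pass without ATRA replicate 4 or 5 or DMSO replicate 4 (adjusted p up to 0.115), and 4 markers fell in lane 3 alone or without ATRA replicate 2. The list's sum was 117 to 121 CPM in ATRA and 76.8 to 85.1 CPM in DMSO libraries. The sum ran against the typical member, as the median log2 change was -0.488, with 4 tested members positive and 6 negative. Of 7 epithelial and fibroblast markers tested KRT8 (1.56 ± 0.25) and KRT18 (0.30 ± 0.11) rose, with a sum of 31.9 to 33.6 CPM in ATRA and 24.4 to 29 CPM in DMSO libraries. KRT18 did not pass without ATRA replicate 4 or 5 or DMSO replicate 4 (adjusted p up to 0.26). The part of other cell types in the results was not tested.

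Among genes with the same minimum level, the largest falls included genes of other lineages and of the cytoskeleton. VIM, the gene of the intermediate filament vimentin, had 11.8, 10.6 and 10.1 CPM with ATRA, against 258, 268 and 264 CPM with DMSO (-4.60 ± 0.09, adjusted p = 1.86e-32; ENSG00000026025, chromosome 10, 17216463 to 17238986). CYP1B1, a cytochrome that oxidises retinoids and steroids, fell to 6.55, 7.59 and 6.47 CPM with ATRA, against 93.2, 79.9 and 93.4 CPM with DMSO (-3.70 ± 0.09). ZBTB16, whose gene is fused to RARA in a variant of this leukaemia that resists ATRA, fell to 3.52, 4 and 3.24 CPM with ATRA, against 46.7, 46.5 and 44 CPM with DMSO (-3.68 ± 0.12). In all 3 genes every ATRA library was far below every DMSO library, and groups without overlap were a condition of their naming. S1PR3, a receptor for sphingosine 1-phosphate, and the potassium channel KCNN4 fell by 3.73 and 3.60 on the log2 scale, and CHAT, the acetylcholine synthase, by 4.64. ANXA8 (-3.95) and ANXA8L1 (-4.78) are near-identical copies and uncertain. TRAC (-3.71) shares 99.6% of its exon length with another model.

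By difference in CPM, which favours long and abundant genes, PRTN3 led the gains among called protein-coding genes whose groups did not overlap, followed by FTL, SRGN, EEF1A1, TKT, ALAS1, ACTB and PKM. The call was lost for EEF1A1 without ATRA replicate 4 or 5 or DMSO replicate 5 (adjusted p up to 0.0748), and for ACTB without any 1 of the 6 libraries (up to 0.133, and 0.218 in lane 3 alone). TKT, transketolase of the pentose phosphate pathway, had 1523, 1548 and 1496 CPM with ATRA, against 434, 470.1 and 474 CPM with DMSO (1.73 ± 0.08). The largest losses among such genes were in HSP90AA1, CALR, MSN and ANPEP. The chaperone gene HSP90AA1 had 1427, 1333 and 1431 CPM with ATRA, against 2049.8, 1937 and 1900.5 CPM with DMSO (-0.49 ± 0.09), and the surface peptidase ANPEP (CD13) 204, 191 and 195 CPM with ATRA, against 489.6, 553 and 548 CPM with DMSO (-1.43 ± 0.08). FSCN1, the actin-bundling protein fascin, fell by 1.84 on the log2 scale. On a per-length scale (TPM), PRTN3 averaged 1635 with ATRA and 606 with DMSO and CALR 1536 with ATRA and 2054 with DMSO, so that PRTN3 was above CALR with ATRA and below it with DMSO.

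Among long non-coding genes with an average log2 CPM of at least 1 and groups that did not overlap, the largest rise was in PTPRN2-AS1, with 142, 135 and 138 CPM with ATRA, against 5.14, 5.7 and 5.25 CPM with DMSO (4.68 ± 0.11; ENSG00000233038, chromosome 7, 157854507 to 157869239). H19, an imprinted transcript, had 53.3, 48.2 and 47.4 CPM with ATRA, against 2.04, 2.49 and 2.39 CPM with DMSO (4.41 ± 0.14), and FAM99B 60.9, 69.5 and 66.6 CPM with ATRA, against 8.9, 8.13 and 8.33 CPM with DMSO (2.96 ± 0.10). The groups did not overlap in any of these, as the naming rule required. LINC01833 fell by 3.66, WT1-AS, antisense to the WT1 gene, by 1.99 and FAM30A, a transcript of immature blood cells, by 1.97 on the log2 scale.

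The effect at 24 h was then set against the effect at 12 h, as the ATRA change of 24 h minus that of 12 h, tested in the same model. All libraries of 0 h and 12 h ran in lane 4, so that time and lane cannot be told apart between the times, while each effect is taken within its own time. The difference was called for 1584 genes (6.90% of those tested), 574 higher at 24 h (2.50%) and 1010 lower (4.40%), and without DMSO replicate 5 of 12 h 357 were higher. Of the 7624 genes called at 24 h, 5380 were also called in the same direction at 12 h (70.6% of the 24 h calls and 60.5% of the 12 h calls) and 122 in the opposite direction, 100 of which were lower at 24 h and higher at 12 h. Of 2122 genes called at 24 h and not at 12 h, 369 passed the test of the difference. Of 8888 genes called at 12 h (38.7% of those tested), 3386 were not called at 24 h, and 421 of these passed it.

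Several azurophil granule genes had a higher effect at 24 h than at 12 h. Of the azurophil list 8 had a higher effect at 24 h than at 12 h and 3 a lower one, while 2.50% and 4.40% of all genes did. The specific and gelatinase granule list went the other way, with 1 higher and 5 lower of 20 tested (median difference -0.37). DEFA4 stood at 31.9 ± 2.33 CPM with ATRA and 1.99 ± 0.15 CPM with DMSO at 12 h, and at 188 ± 13.2 CPM with ATRA and 3.06 ± 0.224 CPM with DMSO at 24 h (difference of log2 changes 1.96 ± 0.18). PRTN3 had a difference of 0.91 ± 0.12. FBN1, the gene of the matrix protein fibrillin, rose to 25.6 ± 1.34 CPM with ATRA and 1.59 ± 0.197 CPM with DMSO at 24 h, with 5.3 ± 0.587 CPM with ATRA and 1.55 ± 0.173 CPM with DMSO at 12 h (2.22 ± 0.23). SOCS2, a feedback inhibitor of cytokine signalling, was lower with ATRA at 12 h (-1.48) and had a log2 change of -0.22 at 24 h (difference 1.26 ± 0.15).

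Sterol genes were mostly lower at 12 h and mostly not called at 24 h. Of 24 cholesterol synthesis genes tested 1 rose and 14 fell at 12 h, where 20% and 18.7% of all genes did, and 6 rose and 2 fell at 24 h. The falls numbered 0 without ATRA replicate 5 or with no filter on low counts, and 1 without ATRA replicate 4, without any 1 DMSO library of 24 h or in lane 3 alone. The median was -0.30 at 12 h and 0.14 at 24 h, where it was 0.03 and 0.02 over all genes. For 18 of them the effect was higher at 24 h and for 1, the exporter ABCA1, lower. HMGCS1, which makes the precursor of mevalonate, had 27.7 ± 1.04 CPM with ATRA and 55.9 ± 4.63 CPM with DMSO at 12 h, and 147 ± 6.69 CPM with ATRA and 135 ± 16.5 CPM with DMSO at 24 h (difference 1.14 ± 0.13, adjusted p = 3.35e-08). The list summed to 1136 ± 51.7 CPM with ATRA and 1378 ± 31.3 CPM with DMSO at 12 h, and to 2295 ± 65.8 CPM with ATRA and 2053 ± 64.4 CPM with DMSO at 24 h. The DMSO cells were thus higher at 24 h than at 12 h too, while untreated cells of 0 h stood at 2243 ± 51.5 CPM. With the 6 libraries of 24 h fitted alone 12 members rose at 24 h.

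Ribosome biogenesis and some protein folding genes also had a higher effect at 24 h than at 12 h. All 30 ribosome biogenesis genes were lower at 12 h (median -0.50), and the effect was higher at 24 h for 13 and lower for 0. NCL, nucleolin, stood at 689.6 ± 24 CPM with ATRA and 1115 ± 25.6 CPM with DMSO at 12 h, and at 1032 ± 25.1 CPM with ATRA and 1160.2 ± 17.6 CPM with DMSO at 24 h (0.53 ± 0.10). The endoplasmic reticulum chaperone HSPA5 was lower at 12 h (-0.46) and higher at 24 h (0.20, difference 0.66 ± 0.10, with the 24 h call lost without ATRA replicate 2 or DMSO replicate 5, with other size factors and in lane 3 alone, adjusted p up to 0.142), and the difference for calreticulin, CALR, was 0.61 ± 0.10. Of 34 interferon-stimulated genes the effect was higher at 24 h for 11 (for 7 with limma-voom) and lower for 2, with OAS3 at 0.84 ± 0.14 and the guanylate-binding genes GBP1 and GBP2 at -0.90 and -1.05. It was higher for 5 antigen presentation genes, among them HLA-B (0.65 ± 0.10), and this count was 3 when replicate 4 of the 12 h DMSO group or replicate 5 of the 24 h DMSO group was left out.

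**Figure D4:**
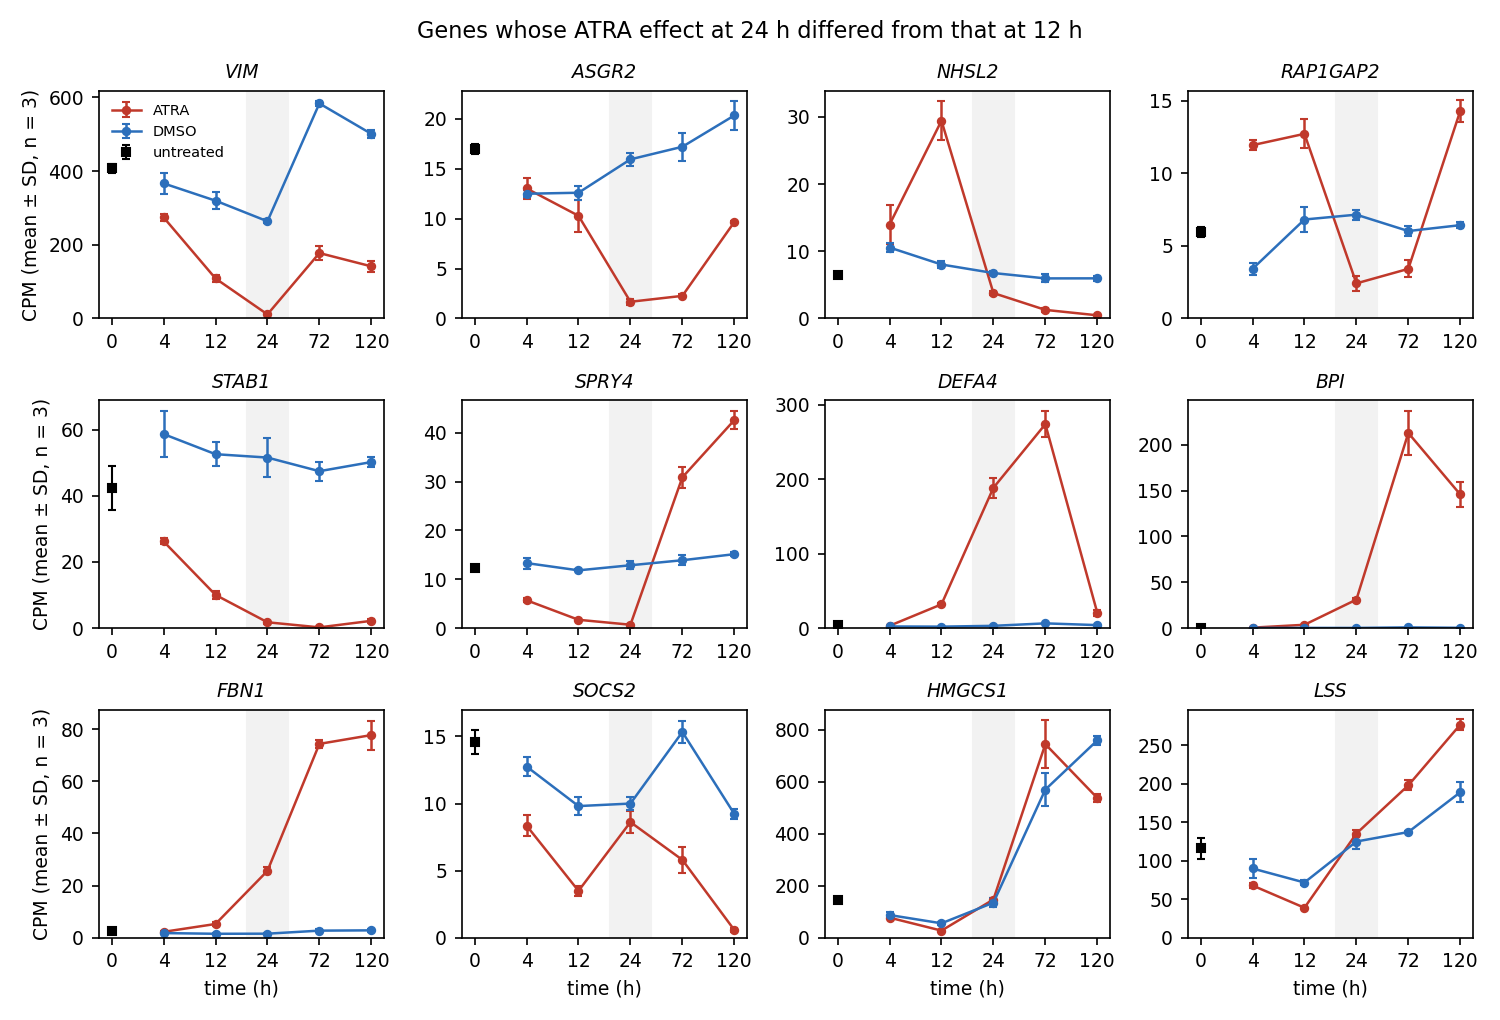
Mean CPM (y axis, linear, its range set for each gene) with SD (n = 3) against time in h (x axis, evenly spaced) in ATRA and DMSO cultures, with untreated cells at 0 h and 24 h shaded, for 12 genes whose ATRA effect at 24 h differed from that at 12 h. VIM averaged 10.8 CPM with ATRA and 264 CPM with DMSO at 24 h.

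Some receptors and regulators called higher with ATRA at 12 h had a lower effect at 24 h than at 12 h. STRA6, the vitamin A uptake receptor, had 63.3 ± 4.91 CPM with ATRA and 10.3 ± 0.434 CPM with DMSO at 12 h, and 11.3 ± 0.856 CPM with ATRA and 9.42 ± 0.696 CPM with DMSO at 24 h, where it was no longer called (difference -2.35 ± 0.14). Of Fc, complement and chemoattractant receptors 16 of 20 were higher at 12 h and 0 lower, and for 6 the effect was lower at 24 h. CXCR4 was called higher at 12 h, at 40.4 ± 3.09 CPM with ATRA and 28.6 ± 3.17 CPM with DMSO, and lower at 24 h (-1.84 ± 0.17). CSF1R, the receptor of the macrophage growth factor, was higher at 12 h (1.58) and had a log2 change of -0.28 at 24 h (difference -1.87 ± 0.17). MMP9 (0.51 at 12 h), NFE2 (0.32) and the proapoptotic BMF (0.74) were also called higher at 12 h and lower at 24 h, with differences of -1.78, -1.46 and -1.55. ID1, an inhibitor of helix-loop-helix factors, kept a rise but a smaller one (19.4 ± 3.14 CPM with ATRA and 0.433 ± 0.215 CPM with DMSO at 12 h, difference -2.85 ± 0.42).

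The effect was lower at 24 h than at 12 h in other genes too. VIM had 108 ± 9.24 CPM with ATRA and 319.6 ± 22.7 CPM with DMSO at 12 h, so its log2 change was lower at 24 h by the difference of -3.04 ± 0.12. ASGR2, a subunit of the asialoglycoprotein receptor, had 1.89, 1.77 and 1.34 CPM with ATRA, against 15.3, 16.6 and 15.9 CPM with DMSO at 24 h, and its log2 change was -0.28 at 12 h (difference -2.98 ± 0.16). NHSL2 and RAP1GAP2, an inhibitor of the GTPase RAP1, were higher with ATRA at 12 h (1.87 and 0.90) and lower at 24 h (-0.84 and -1.58). DNMT3B and GATA2, a factor of stem and mast cells, had differences of -0.81 and -1.05.

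Against 72 h, where 64.7% of the genes were called (32.1% higher and 32.6% lower), the effect at 24 h differed for 45.9% of the genes, 24.5% higher and 21.5% lower. The median of the chemokine list was 0.44 at 24 h and 4.89 at 72 h, that of the pattern recognition and lectin receptors 0.00 and 3.31, and that of the interferon-stimulated genes 1.43 and 6.28. Mitosis genes, with 6 lower at 24 h, were lower for 28 of 30 at 72 h, and cytosolic ribosomal proteins, none of them lower at 24 h, for 29 of 30. SPP1, the gene of osteopontin, had 8.94, 9.59 and 10.05 CPM with ATRA, against 7.18, 6.87 and 7.51 CPM with DMSO at 24 h, and averaged 2746 ± 335 CPM with ATRA and 8.88 ± 2.95 CPM with DMSO at 72 h (difference -7.88 ± 0.23). FLT1, a receptor for vascular endothelial growth factor, was lower with ATRA at 24 h (-2.51) and higher at 72 h (4.25). CST7 and CTSG fell further, to 0.83 ± 0.286 CPM with ATRA and 136 ± 4.36 CPM with DMSO for CST7 at 72 h, where the DMSO level was itself above that of 24 h (5.12 ± 0.15).

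**Figure D5:**
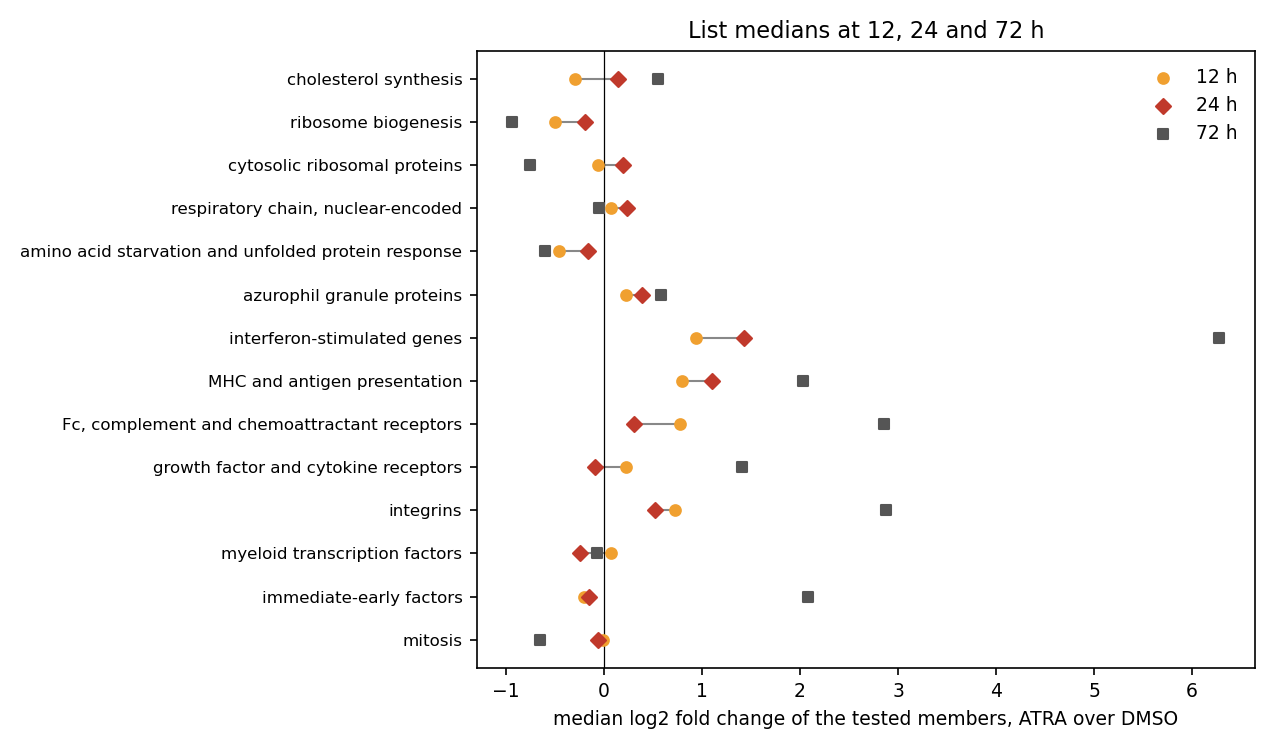
Median log2 change of ATRA over DMSO of the tested members (x axis) of 14 gene lists (y axis) at 12, 24 and 72 h, with a grey line between 12 h and 24 h. The cholesterol synthesis list lies at -0.30 at 12 h and 0.14 at 24 h, and interferon-stimulated genes at 0.94, 1.43 and 6.28.

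For some genes 24 h was the low or high point among the times compared. Of 22971 genes tested, the ATRA effect was lower at 24 h than at both 12 h and 72 h for 528. Of these 304 were called higher at 12 h and 293 called lower at 24 h. The effect was higher at 24 h than at both for 287 genes. Both differences use the same 6 libraries of 24 h, so an error in these libraries enters both and the 2 tests are not independent. VIM is among the 528, at 177 ± 18.2 CPM with ATRA and 584 ± 6.2 CPM with DMSO at 72 h and 407 ± 11.8 CPM in untreated cells. SPRY4 is another, with a log2 change of -2.77 at 12 h, -4.19 at 24 h and 1.15 at 72 h.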

How the data were processed

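Total RNA of NB4 cells was made into stranded libraries and sequenced as 150 bp pairs on a HiSeq 3000, per the labels' protocols, in 2 technical runs per replicate, per the labels. The values are raw counts of fragments per gene that the authors made with featureCounts 1.5.1, per the file headers, in strand-specific paired mode on a merged Ensembl and FANTOM CAT annotation of GRCh38 (Ensembl release 90). The submitters' processing notes also name STAR 2.5.2b and Trimmomatic 0.36, without a role for either. Where a fragment fell on more than 1 gene each gene received it, per the file headers, so genes that share exons on a strand share counts. Of genes named in the text, ANXA8, ANXA8L1, CD68, CEBPA, CEBPB, GBP1, ISG20 and TRAC share at least 50% of their exon length with another gene model, and their values are uncertain. Gene types are from GENCODE 29. Symbols are from a separate list of gene names, or from GENCODE 29 where that list had none.

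The test was that of edgeR 4.0.16 (R 4.3.3). After filterByExpr, libraries were scaled by TMM (factors 0.986 to 1.018 at 24 h), and 1 quasi-likelihood model with a mean for each of 11 groups was fitted to 33 libraries, with a biological coefficient of variation of 0.0769 and 15.93 prior degrees of freedom. P-values were adjusted by Benjamini-Hochberg over all 22971 genes of a comparison. With 3 libraries a group, of 18341456 to 31273271 summed counts at 24 h, genes of a few counts are imprecise. Below 4 counts in a group the counts are given in place of a fitted change, for RARB and ALOX5 with their ratio and its exact 95% counting interval. Alternatives were DESeq2 1.42.0, limma-voom (limma 3.58.1), RLE size factors, other filters, the 6 libraries alone, lane 3 alone, a replicate block, and each library left out. Lane 3 alone left out the 24 h libraries of replicate 2 and kept all libraries of other times.

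The lists and the members were chosen with earlier results of these data known. Genes were named by a rule that took 14 genes of largest change each way with an average log2 CPM of at least 1 and no overlap, 8 called protein-coding genes each way by difference in CPM with no overlap, 5 long non-coding genes each way by the conditions of the first group, 6 and 4 genes each way for the differences from 12 h and 72 h with an average log2 CPM of at least 2, up to 4 members each way of each list described, any member of lists of 10 or fewer, and marker genes. Promoters are from RefSeq (GRCh38.p14), and the sequence at the end of the window was found in a transcript of the gene for 28 of 30 promoters checked.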

Additional observations from a re-analysis of the deposited data

Results flagged for a closer look

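The results below stand here because the ATRA effect differed between times in a test of the difference itself, which edgeR's quasi-likelihood test made with Benjamini-Hochberg adjustment. The effect was higher at 24 h than at 12 h for 574 genes (357 without DMSO 12 h replicate 5) and lower for 1010, and higher at 24 h than at 72 h for 5618 genes and lower for 4933.

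The genes named for the largest differences from 12 h had, as the log2 change at 24 h minus that at 12 h, 2.78 for DEFA3, 2.75 for DEFA1B, 2.22 for FBN1, 1.96 for DEFA4, 1.27 for PLD4 and 1.26 for SOCS2. On the lower side stood VIM at -3.04, ASGR2 at -2.98, NHSL2 at -2.72, ANXA8L1 at -2.71 and RAP1GAP2 and STAB1 at -2.48 each. DEFA3 and DEFA1B, like ANXA8L1, have near-identical copies.

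Against 72 h, the difference of log2 changes was 5.20 for CTSG, 5.12 for CST7, 3.52 for SPNS3 and 3.51 for DES, the gene of desmin. It was -7.88 for SPP1, -6.76 for FLT1, -6.53 for OAS2 and -6.33 for IFIT2. DES averaged 8.72 ± 0.86 CPM with ATRA and 28.3 ± 0.511 CPM with DMSO at 24 h, and 1.72 ± 0.0849 CPM with ATRA and 63.7 ± 2.56 CPM with DMSO at 72 h, so that its DMSO level differed between the times as well. IFIT2 averaged 10.7 ± 1.01 CPM with ATRA and 8.45 ± 0.396 CPM with DMSO at 24 h, and 471 ± 90.3 CPM with ATRA and 4.63 ± 0.843 CPM with DMSO at 72 h.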

How the results depend on the processing

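Counts of genes higher and lower with ATRA at 24 h stayed within 1.5 times of 3986 and 3638 under each alternative run, from 3300 to 4349 and from 2998 to 4175, and from 3428 to 3649 and from 3077 to 3308 with 1 of the 6 libraries left out. With DESeq2 the calls were 3489 higher and 4152 lower, and with RLE size factors 3551 and 4175, which moved the median of all genes by -0.03. Without any 1 of ATRA 72 h replicates 2, 4 and 5, DMSO 12 h replicate 5 or DMSO 72 h replicate 4, the calls at 24 h were 3655 to 3686 higher and 4007 to 4067 lower, with a shift of -0.02. So which side is larger depends on these choices. The number of genes changed at least 2-fold was 1556 with a filter of 50 counts, which tests fewer genes, and 2170 to 2293 with 1 library left out. Genes whose effect was higher at 24 h than at 12 h numbered 357 without DMSO 12 h replicate 5, the lowest of 357 to 572 with 1 library left out, and lower ones 823 to 1010. Against 72 h the ranges were 4940 to 5442 higher and 4551 to 5019 lower.

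Deviations from the group mean of same-numbered replicates correlated at -0.018, 0.074 and -0.112 for numbers 2, 4 and 5. Those of libraries with unlike numbers correlated at -0.07 to 0.093. With 3 libraries a group these values cannot show whether the numbers pair the libraries. With the replicate block the calls at 24 h were 4136 higher and 3798 lower. Against 12 h they were 677 and 1078 with the block, against 72 h 5740 and 5033, and 2356 genes changed at least 2-fold.

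Of 817 named or listed genes tested, 518 were called and 420 of these kept their side under each alternative for the gene, as did 208 of the 299 not called. None of these changes reversed under the alternatives run. Of genes named in the text as called at 24 h, EEF1A1, ACTB, TNFSF10, RAC1, ISG20, HSPA5, EBF1 and KRT18 lost the call under at least 1 alternative, and SPP1, STRA6, CEBPA, MPO, CSF1R and NCL, not called, passed under at least 1. MPO passed with the 6 libraries alone (adjusted p = 0.00368 by edgeR). In the difference from 12 h, counts of at most 5 called members in the lipid mediator, inflammatory, actin, MAPK, coagulation, cell cycle inhibitor, lysosome and Src lists moved by over 1.5 times. At 24 h, the count of rises was 0 or 1 across alternatives for stem and progenitor, mitosis and ribosome biogenesis genes. The cause was not tested. Replicate 2 has 1 library a group in its lane, too few for a test of its own. Depth limits genes of a few counts, such as RARB and ALOX5.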
